A study of Homo sapiens with 4 samples.

Results

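In MDA-MB-231 cells kept with RB-1 for 24 h, 42 genes of low abundance were left with at most 10% of their level in DMSO cells. They were chosen by that fall. A gene was taken where it stood at 1 to 30 CPM (counts per 1000000 counts of the library) in both DMSO libraries and where its mean CPM after RB-1 was at most 0.1 of its mean CPM in DMSO. Of the 20263 genes in the table, 5572 stood in that range in DMSO. The thresholds were met by 50 of these, a share of 0.897%, and 8 were then set aside by name because their symbols join a pair of genes or because they are SPANX genes, AMOT, TFAP2C or ZNF521. The 42 left are 0.762% of the 5512 genes of the range without such names. The fall from DMSO to RB-1 is therefore what chose the 42 genes, and it is described below without a test. What the choice did not use is how long the genes are, where they lie, what they do and how their relatives behaved.

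MDA-MB-231 is an established human line from a triple-negative breast cancer, grown here in DMEM with 10% fetal bovine serum and antibiotics. The cells had received RB-1 (2 libraries) or the solvent DMSO (2 libraries), and all 4 libraries carry the label of this 1 line. RB-1 is known here by its code name, the series title calls it a derivative of ribociclib, an inhibitor of the cell-cycle kinases CDK4 and CDK6, and the labels give no dose. Library totals ran from 34122874 to 37754168 counts. The line's usual profile was present: VIM, the mesenchymal filament protein, had 5672 and 5449 CPM in RB-1 libraries and 3577 and 3682 CPM in DMSO libraries, whereas CDH1, the epithelial cadherin, had at most 0.0586 CPM in any library. The estrogen receptor gene ESR1 had 0.111 and 0.147 CPM after RB-1 and 0.661 and 0.185 CPM in DMSO. Of 12 markers of endothelium, immune cells, neurons and fibroblasts, 7 were too low to be tested. CD3E of T cells, CDH5 of endothelium and COL1A2 of fibroblasts stayed under 0.1 CPM in each library. Other markers of the same lists were present. COL1A1 of fibroblasts had 5.29 and 5.19 CPM in RB-1 and 7.505 and 7.02 CPM in DMSO. PECAM1 of endothelium had 0.804 and 1.23 CPM in RB-1 and 1.18 and 0.609 CPM in DMSO. VWF, also of endothelium, had at most 0.557 CPM. The most abundant of the 12 was CD68, a lysosomal protein also made outside macrophages, with 229.6 and 220.2 CPM in RB-1 and 160.2 and 295.0 CPM in DMSO. No label says that libraries of 1 group are separate cultures, so the p-values below measure how these samples spread, and that spread may be technical. In bulk RNA, fewer cells with a transcript and less of it per cell cannot be told apart.

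The genes belong to no 1 pathway. Many encode proteins of the cell surface and its inner scaffold: adhesion molecules that let neurons recognise each other, parts of the synapse, receptors, and adaptors that tie membrane proteins to actin. Others are enzymes or secreted proteins typical of gut, kidney, placenta or liver. Cancer cell lines often carry traces of transcripts from lineages other than their own. Genes that span long stretches of DNA take longer to transcribe, since polymerase must cross their introns, and genes of neurons and of cell adhesion are known to include many of the longest.

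Both RB-1 libraries lay below both DMSO libraries in all 42 genes, which the choice of genes nearly fixes, and in 21.1% of the 5572 genes of the DMSO range. For scale, edgeR called 16.1% of the 13612 genes tested lower and 12.8% higher after RB-1, and among the 5572 genes of the same DMSO range it called 11.9% lower and 16.5% higher. The 42 genes passed the filter on low counts, for which their DMSO libraries were enough. Some also held enough counts in their RB-1 libraries, such as RIMS2 with 105 and 32. In 11 of the 42 genes neither RB-1 library held a single count, and 6 more held 1 to 3 counts over both libraries. Among all 5572 genes of the range, 14 (0.251%) were at 0 counts in both RB-1 libraries. The same rule turned round, for genes at 1 to 30 CPM in both RB-1 libraries and near 0 in DMSO, found 25 genes (0.476% of 5257), or 24 (0.461% of 5208) after the same names were set aside, and none of 5257 was at 0 counts in both DMSO libraries (0.0%). A count of 0 over a group allows up to 3 counts, or 0.0427 CPM over both RB-1 libraries. Folds against 0 are given as lower limits at that floor, and these limits cover counting error only, since reads without molecular identifiers are not independent molecules. If both reads of a pair were counted, as the excess of even counts leaves possible, the same floor would be 6 counts and each limit 2 times smaller.

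**Figure D1:**
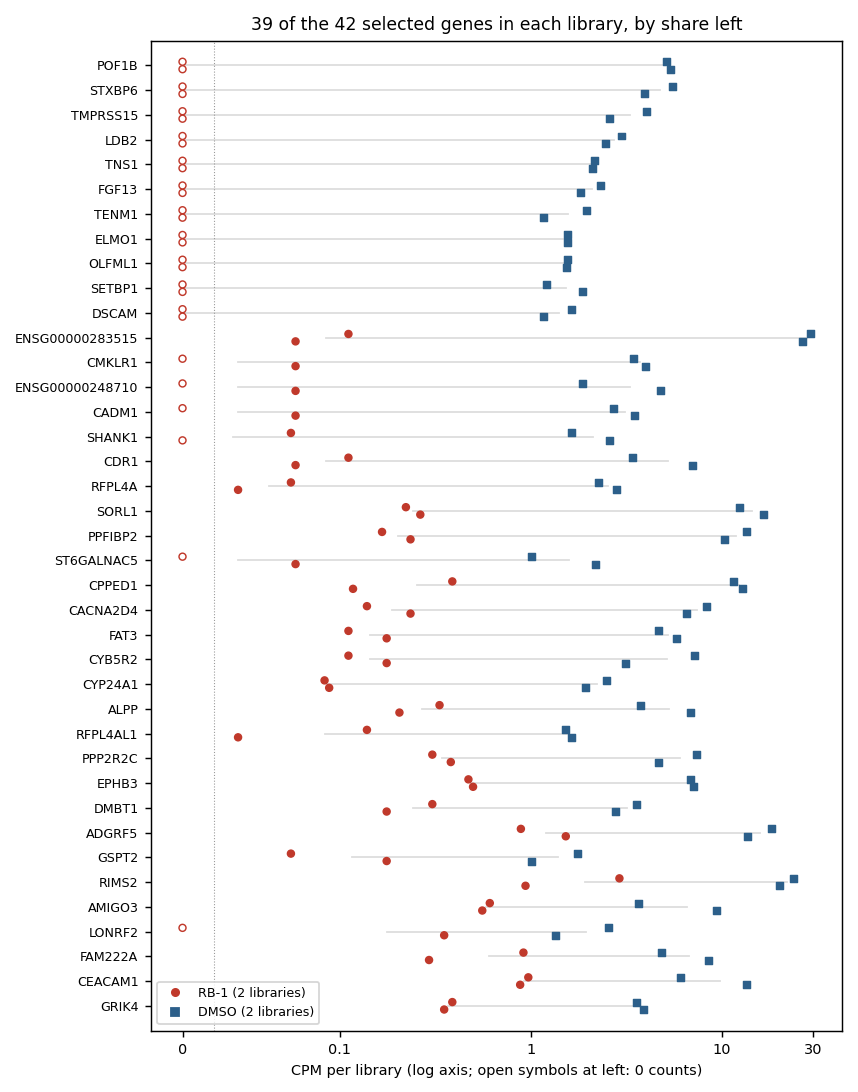
CPM of 39 of the 42 genes (rows) in the 2 RB-1 libraries (circles) and the 2 DMSO libraries (squares) on a log axis, with grey lines between group means and open circles at the left for 0 counts. The top 11 genes have 0 counts in both RB-1 libraries, and in every row both circles lie left of both squares.

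Close to the bound on the share left, CEACAM1 and GRIK4 stood inside it, with 9.47% and 9.92% of the DMSO level left. Just outside it stood BICDL1, MYH15 and RHOJ with 10.1%, 10.5% and 10.5%. At the lower CPM bound, ST6GALNAC5 and GSPT2 entered with lowest DMSO values of 1.01 CPM each, and SPTB, LGI2 and SLFN12L missed it with 0.805, 0.821 and 0.821 CPM. At the upper bound ENSG00000283515 entered with a highest DMSO value of 29.3 CPM, while APC, a tumour suppressor of the Wnt pathway, met the share (9.70% left) but missed the range at 77.2 CPM.

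The 7 genes of adhesion and guidance held 2 of the genes at 0 counts, DSCAM and TENM1. DSCAM, an immunoglobulin-family receptor by which neurites of one cell avoid each other, had 0 and 0 counts in RB-1 libraries and 57 and 44 counts in DMSO libraries. TENM1, a teneurin that binds latrophilins across the synapse, had 0 and 0 counts after RB-1, against 68 and 44 counts in DMSO. Their levels after RB-1 were at least 32.6-fold lower for DSCAM and at least 36.1-fold lower for TENM1. FAT3, a giant cadherin that shapes the dendrites of retinal neurons in mice, had 4 and 6 counts in RB-1 libraries and 162 and 218 counts in DMSO libraries, leaving 2.75%. CADM1, a nectin-like adhesion molecule of epithelia, mast cells and synapses, had 0 and 2 counts after RB-1 and 94 and 132 counts in DMSO. Of these 4 genes, TENM1 had the widest relative gap between its DMSO libraries. With 2 counts in all, the share left for CADM1 was 0.914% of pooled counts, with an exact 95% counting interval of 0.110% to 3.34%.

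The other adhesion genes kept more of their transcripts, between 6.98% (EPHB3) and 9.47% (CEACAM1). CEACAM1, a carcinoembryonic-antigen-related adhesion molecule of epithelia and leukocytes, had 0.970 and 0.879 CPM in RB-1 libraries against 6.07 and 13.5 CPM in DMSO libraries. EPHB3, a receptor tyrosine kinase for membrane-bound ephrin-B ligands that sorts cells in the gut crypt, had 0.471 and 0.498 CPM after RB-1 and 6.82 and 7.07 CPM in DMSO. AMIGO3, a leucine-rich-repeat adhesion protein, had 0.610 and 0.557 CPM in RB-1 and 3.68 and 9.43 CPM in DMSO. EPHB3 was tight within both groups, while the second DMSO library was over the first by 2.22-fold for CEACAM1 and 2.56-fold for AMIGO3. The value for AMIGO3 is uncertain, because 99.7% of its exon bases also belong to GMPPB, and the counting decides which of them receives a read.

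Genes of the synapse and the excitable membrane made up 6 of the 42. STXBP6, or amisyn, which binds SNARE proteins and holds back vesicle fusion, had 0 and 0 counts after RB-1, against 192 and 148 counts in DMSO. FGF13, an intracellular FGF relative that binds voltage-gated sodium channels, had 0 and 0 counts in RB-1 libraries and 81 and 69 counts in DMSO libraries. The level was at least 110-fold lower for STXBP6 and at least 48.4-fold lower for FGF13. SHANK1, a scaffold of the postsynaptic density, had 2 and 0 counts after RB-1 and 57 and 97 counts in DMSO. Its pooled share was 1.34% (exact 95% counting interval 0.161% to 4.93%). CACNA2D4, an auxiliary subunit of calcium channels of the retina, had 0.139 and 0.234 CPM with RB-1 and 8.34 and 6.54 CPM with DMSO.

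RIMS2 and GRIK4 kept the most in this group. RIMS2, which organises the release site of synaptic vesicles, had 2.91 and 0.938 CPM in RB-1 libraries and 23.7 and 20.1 CPM in DMSO libraries, leaving 8.79%. GRIK4, a subunit of the kainate receptor for glutamate, had 0.388 and 0.352 CPM after RB-1 and 3.57 and 3.89 CPM in DMSO, leaving 9.92%. The RB-1 libraries differed visibly for RIMS2, with the first of them the higher, and were alike for GRIK4.

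Receptors numbered 3. SORL1, a sorting receptor of the VPS10P family that steers proteins such as the amyloid precursor between endosome and Golgi, had 0.222 and 0.264 CPM in RB-1 libraries and 12.4 and 16.5 CPM in DMSO libraries. With 8 and 9 counts after RB-1 against 432 and 622 counts in DMSO, 1.68% of its level was left. ADGRF5, an adhesion G-protein-coupled receptor of lung epithelium and endothelium, had 0.887 and 1.52 CPM after RB-1 and 18.2 and 13.6 CPM in DMSO, with 7.58% left. CMKLR1, the receptor for the chemoattractant chemerin, had 0 and 2 counts with RB-1 and 120 and 151 counts with DMSO. Its pooled share was 0.762% (exact 95% counting interval 0.0919% to 2.78%). SORL1 and ADGRF5 had counts in both RB-1 libraries, and CMKLR1 in 1 of them.

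Scaffold, cytoskeletal and signalling genes held 3 of the 11 genes at 0 counts. POF1B, an actin-binding protein of epithelial junctions, had 0 and 0 counts in RB-1 libraries and 178 and 204 counts in DMSO libraries. Its level was at least 123-fold lower, the largest such limit of the 11. TNS1, a tensin that links integrins to actin at focal adhesions, had 0 and 0 counts after RB-1 against 75 and 79 counts in DMSO, at least 49.7-fold lower. ELMO1, which with DOCK proteins activates the GTPase Rac in engulfment and migration, had 0 and 0 counts with RB-1 and 54 and 59 counts with DMSO, at least 36.5-fold lower. In these genes the DMSO libraries agreed closely. PPFIBP2, or liprin beta-2, a member of a family that gathers proteins at synapses and focal adhesions, had 0.166 and 0.234 CPM in RB-1 and 13.4 and 10.4 CPM in DMSO, with 1.69% left. PPP2R2C, a regulatory subunit of protein phosphatase 2A found mainly in brain, kept 5.71%, at 0.305 and 0.381 CPM after RB-1 and 7.33 and 4.69 CPM in DMSO.

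Transcriptional regulators were also among the genes at 0 counts. LDB2, a cofactor that joins LIM-domain transcription factors into complexes, had 0 and 0 counts after RB-1 and 104 and 93 counts in DMSO. SETBP1, which binds the SET oncoprotein and DNA, had 0 and 0 counts after RB-1 and 42 and 70 counts in DMSO. These put LDB2 at least 63.6-fold lower and SETBP1 at least 36.1-fold lower.

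Enzymes and secreted proteins were the largest functional group, with 9 genes. CYP24A1, the enzyme that breaks down active vitamin D, had 3 and 3 counts in RB-1 libraries and 87 and 73 counts in DMSO libraries, with 3.86% left. TMPRSS15, the enteropeptidase that activates trypsinogen in the duodenum, had 0 and 0 counts after RB-1, against 140 and 97 counts in DMSO, at least 76.5-fold lower. OLFML1, a secreted olfactomedin-domain protein, had 0 and 0 counts with RB-1 and 54 and 58 counts with DMSO, at least 36.1-fold lower. Of these, TMPRSS15 had the widest gap between its DMSO libraries. CPPED1, a calcineurin-like phosphatase, kept 2.07%, at 0.388 and 0.117 CPM after RB-1 and 11.6 and 12.9 CPM in DMSO. CYB5R2, a cytochrome b5 reductase, kept 2.79%, and its DMSO libraries differed (0.111 and 0.176 CPM in RB-1, 7.16 and 3.13 CPM in DMSO). ALPP, the placental alkaline phosphatase, kept 5.07%, though close paralogs may share its reads. DMBT1, a scavenger protein of mucosal surfaces, kept 7.54%. ST6GALNAC5, a sialyltransferase of brain gangliosides, had 0 and 2 counts after RB-1 and 35 and 82 counts in DMSO, a pooled share of 1.77% (exact 95% counting interval 0.211% to 6.52%).

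The 9 genes placed in no functional group include several whose counts are uncertain. ENSG00000283515 averaged 0.0847 ± 0.0370 CPM in RB-1 and 27.9 ± 1.94 CPM in DMSO (SD, n = 2 each), but 78.0% of its exon bases are shared with the read-through gene ZNF8-ERVK3-1. ENSG00000248710 shares 92.0% of its exon bases with IFT80. Neither has a symbol, so the setting aside of joined names could not apply to them. Whether they are read-through genes themselves was not tested. RFPL4A and RFPL4AL1 are near-identical neighbours, so reads may be split between them. They had 2 and 1 counts (RFPL4A) and 5 and 1 counts (RFPL4AL1) in RB-1 libraries, against 79 and 106 counts (RFPL4A) and 53 and 62 counts (RFPL4AL1) in DMSO libraries. GSPT2, an intronless copy of the translation termination factor gene GSPT1, had 2 and 6 counts after RB-1 and 61 and 38 counts in DMSO. CDR1, named for a cerebellar antigen, had 4 and 2 counts in RB-1 and 119 and 265 counts in DMSO. How strand was used in the counting is not stated by any source at hand, so reads of CDR1 cannot be told from reads of RNA made from the opposite strand. LONRF2, a RING-finger protein, had 0 and 12 counts in RB-1 libraries, which stood far apart, and 89 and 51 counts in DMSO libraries. FAM222A had 33 and 10 counts with RB-1 and 169 and 323 counts with DMSO.

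Per kilobase of exon, the DMSO levels of genes without shared exons ranged widely. CDR1 was the highest at 6.62 CPM per kb, and RFPL4A had 2.45. SORL1 stood at 0.743 CPM per kb, STXBP6 at 0.585, LDB2 at 0.488, DSCAM at 0.164, TENM1 at 0.121 and FGF13 at 0.101. Across the 42 genes the share left went with the DMSO level in CPM, with a Spearman correlation of 0.407, given as a description over genes of the same 4 libraries. The 11 genes at 0 counts had 1.40 to 5.26 CPM on average in DMSO, so the depth could show no more than the lower limits given above.

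Genomic span, the distance along the chromosome from the first to the last exon base of a gene, was taken from GENCODE release 29. The median was 114.7 kb for the 42 genes and 28.6 kb for the other genes of the same DMSO range. Of the 42 genes, 23 (54.8%) spanned over 100 kb and 15 over 200 kb, against 17.9% over 100 kb in the rest of the range and 19.7% of all genes tested. The 11 genes at 0 counts had a median of 388 kb, and 10 of them spanned over 100 kb, the exception being OLFML1 at 26.0 kb. The 31 with at least 1 count had a median of 57.6 kb, and 13 of them spanned over 100 kb. DSCAM was the longest at 836 kb, ahead of RIMS2 at 755 kb, FGF13 at 608 kb, ELMO1 at 595 kb and TENM1 at 588 kb. At the other end stood CDR1 at 0.789 kb, GSPT2 at 2.80 kb and AMIGO3 at 2.86 kb. Without the 4 genes that share most of their exon bases with another gene, the median was 135.4 kb. The 24 genes of the turned-round rule had a median span of 13.0 kb, and genes of the range that kept 0.5 to 2 of their DMSO level had one of 30.4 kb.

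**Figure D2:**
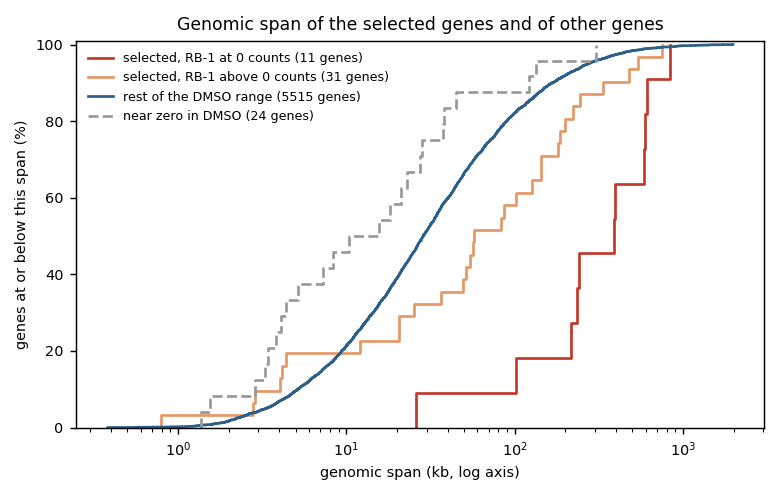
Share of genes (%) at or below each genomic span (kb, log axis) for the selected genes with RB-1 at 0 counts, the selected genes with RB-1 above 0 counts, the rest of the DMSO range and the genes near 0 in DMSO. The curve of the 11 genes at 0 counts lies furthest to the right (median 388 kb) and that of the 24 genes near 0 in DMSO furthest to the left (13.0 kb).

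Exons accounted for little of these spans. The median exon length was 6.57 kb for the 42 genes and 4.57 kb for the rest of the range, with 12 exons against 8, and the span was 15.3 times the exon length against 6.31 times. Among genes with more than the range's median exon length of 4.57 kb, 26 selected genes had a median span of 210.5 kb and the rest 52.6 kb. Among the shorter ones, 16 selected genes had 23.3 kb and the rest 15.3 kb. Over the 42 genes the share left had a Spearman correlation of -0.432 with span and -0.199 with exon length. These are descriptions only: the share is the value that chose the genes, it is capped at 10%, 11 of its values are 0, and it also followed the DMSO level.

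**Figure D3:**
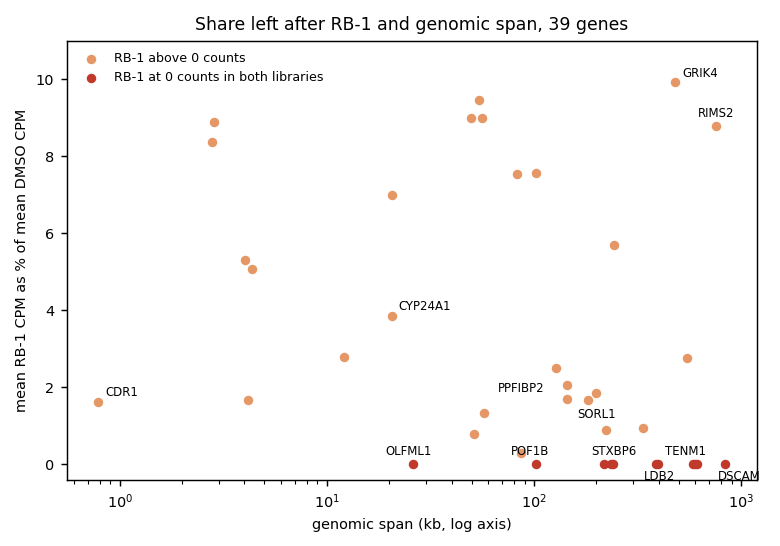
Mean RB-1 CPM as a percentage of mean DMSO CPM (y) against genomic span in kb (x, log axis) for 39 of the 42 genes, dark points having 0 counts in both RB-1 libraries. The dark points lie between 26.0 kb (OLFML1) and 836 kb (DSCAM), while GRIK4 and RIMS2 are long genes that kept 9.92% and 8.79%.

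Length also went with the change over the whole DMSO range. When its genes were cut into deciles by span, 18 of the 42 fell in the longest decile, genes over 172 kb, where they were 3.23% of all, and 6 fell in the shortest decile, where they were 1.08%. The median log2 ratio of RB-1 to DMSO CPM was 0.70 in the shortest decile and -0.30 in the longest. At this scaling by library totals the median log2 fold change of all genes tested was 0.21, which lies between them. The range itself stood higher, with medians of 0.39 and 0.38 in its middle deciles. Over the 5565 tested genes of the range with a span, the log2 fold change had a Spearman correlation of -0.303 with span and -0.299 with exon length. Length also separated the pair of RB-1 libraries: the first library's share of the pair's CPM had a correlation of -0.392 with span, against 0.0797 between the DMSO libraries. With the first RB-1 library alone the medians of the shortest and longest deciles were 0.83 and -0.67, and with the second alone 0.51 and -0.10. The longest decile was thus the lowest of these in either library, with a larger gap in the first. Selecting without RB-1 replicate 1 gave 49 genes with a median span of 106.2 kb, and without RB-1 replicate 2 it gave 59 genes with 119.3 kb. The part of RNA quality or library making in this relation was not tested.

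**Figure D4:**
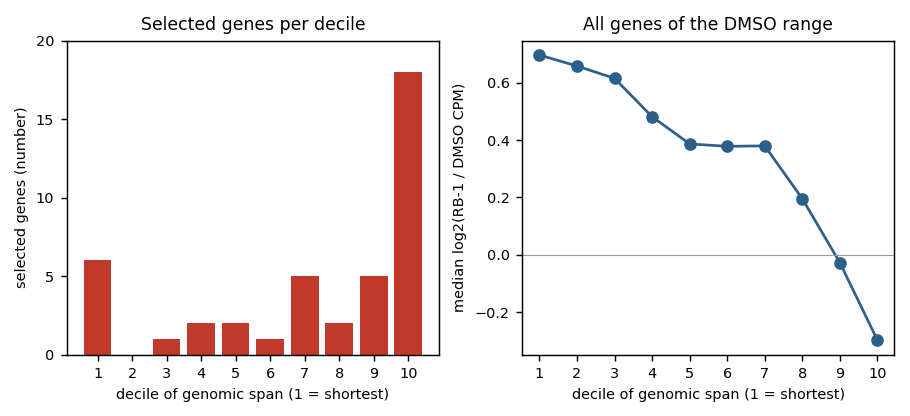
Left, number of the 42 selected genes in each decile of genomic span over the DMSO range (1 the shortest). Right, median log2 ratio of mean RB-1 to mean DMSO CPM over all genes of each decile, which is 0.70 in the first and -0.30 in the last, where 18 selected genes lie.

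The genes lay on many chromosomes, with a few gatherings. Chromosome 11 held 7 of them (16.7%, against 5.28% of the genes of the range) and chromosome X held 6 (14.3%, against 3.88%). Those on X include POF1B, CDR1, FGF13, TENM1 and GSPT2. On chromosome 11, OLFML1, PPFIBP2 and CYB5R2 are direct neighbours, with gaps of 1.92 kb and 7.97 kb between them. The next tested gene beyond CYB5R2, OVCH2, averaged 0.486 CPM in RB-1 and 1.39 CPM in DMSO (log2 fold change -1.67 ± 0.58 SE, edgeR adjusted p = 0.0509). The next one beyond OLFML1, NLRP14, had a log2 fold change of -1.03 ± 0.82 SE (edgeR adjusted p = 0.370), so neither flank passed the threshold of 0.05. The other adjacent pair was RFPL4A and RFPL4AL1.

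Most of the nearest tested genes on either side passed no threshold. They were taken at any distance, so many do not lie close by. Among those called lower, ARHGEF12 lay 21.8 kb from GRIK4, but SMARCA1 lay 4483 kb from TENM1 and G2E3 5509 kb from STXBP6. Of 77 tested genes that lie next to a selected gene and were not selected, edgeR called 13 lower (16.9%) and 6 higher (7.79%), against 16.1% lower and 12.8% higher among all genes tested. Of the 13, SPANXB1, 218 kb from CDR1, had itself met the thresholds and was set aside by name, which leaves 12. Their median log2 fold change over all 77 was -0.31, against 0.01 for all genes tested. These counts moved with single libraries: without DMSO replicate 1 they were 8 lower and 3 higher, without DMSO replicate 2 they were 10 and 2, and without RB-1 replicate 1 they were 6 and 4.

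RefSeq promoter sequences of build GRCh38.p14 were at hand for 28 of the 42 genes. Over the 250 bases before the start, the ratio of observed to expected CG pairs had a median of 0.677 in the 28 genes, 0.789 in the 4368 other genes of the range and 0.743 in all 15296 genes with a sequence. It was under 0.4 in 9 of the 28 (32.1%), against 12.5% in the rest of the range and 25.3% of all. Both kinds of promoter thus occurred among the selected genes, and 4 are shown as examples: SORL1 with a ratio of 1.12, STXBP6 with 0.756, CMKLR1 with 0.0702 and TMPRSS15 with 0. Each is the 250 bases before the start, in the direction of transcription, with CG pairs in capitals. SORL1 (chr11:121452064-121452313, plus strand) has 45 CG pairs, STXBP6 (chr14:25050148-25050397, minus strand) has 25, CMKLR1 (chr12:108320643-108320892, minus strand) has 1 and TMPRSS15 (chr21:18403786-18404035, minus strand) has 0.
SORL1: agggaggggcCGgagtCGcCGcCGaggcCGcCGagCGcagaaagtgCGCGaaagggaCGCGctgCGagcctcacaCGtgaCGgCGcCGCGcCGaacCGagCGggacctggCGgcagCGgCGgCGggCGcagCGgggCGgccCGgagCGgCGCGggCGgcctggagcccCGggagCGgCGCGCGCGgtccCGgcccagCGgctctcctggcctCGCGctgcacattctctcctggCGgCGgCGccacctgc
STXBP6: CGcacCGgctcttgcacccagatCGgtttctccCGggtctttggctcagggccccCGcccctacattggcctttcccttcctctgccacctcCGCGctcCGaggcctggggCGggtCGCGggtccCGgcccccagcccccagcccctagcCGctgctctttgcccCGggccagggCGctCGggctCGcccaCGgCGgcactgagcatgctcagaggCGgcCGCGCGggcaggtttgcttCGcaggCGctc
CMKLR1: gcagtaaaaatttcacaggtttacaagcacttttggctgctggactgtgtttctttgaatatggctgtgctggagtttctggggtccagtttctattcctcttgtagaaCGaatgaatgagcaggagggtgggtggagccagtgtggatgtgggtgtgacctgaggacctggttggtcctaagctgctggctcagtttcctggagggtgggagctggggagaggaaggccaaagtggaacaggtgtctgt
TMPRSS15: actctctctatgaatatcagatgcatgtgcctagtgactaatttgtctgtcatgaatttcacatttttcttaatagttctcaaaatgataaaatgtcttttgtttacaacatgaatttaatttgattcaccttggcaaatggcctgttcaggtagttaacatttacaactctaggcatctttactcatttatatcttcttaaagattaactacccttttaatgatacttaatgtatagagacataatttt

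Beside these letters, SORL1 had 0.222 and 0.264 CPM after RB-1 against 12.4 and 16.5 CPM in DMSO, and TMPRSS15 had 0 counts after RB-1 against 4.03 and 2.57 CPM in DMSO. Searched on both strands of the same window, the TATA box TATAAA was in 5 of the 28 promoters (17.9%), against 5.33% in the rest of the range and 9.15% of all. The near-identical neighbours RFPL4A and RFPL4AL1 are both among the 5. The AP-2 motif GCCNNNGGC was in 10 (35.7%, against 28.5% and 24.4%) and the nuclear receptor half-site AGGTCA in 3 (10.7%, against 9.02% and 10.2%). TGANTCA (3.57%, against 3.78% and 5.02%) and TGTTTAC (3.57%, against 2.01% and 2.24%) were in 1 promoter each, TMPRSS15 in both cases. CACGTG was in 2, SORL1 and PPFIBP2 (7.14%, against 8.13% and 7.86%). A match says only that these letters are in the window.

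By the tissue in which each gene is best known, 11 of the 42 were placed with the nervous system, 9 with epithelium and secretory organs and 3 with blood and vessels, and 19 were not placed. Other genes of the DMSO range were not placed by tissue, so these counts and the spans below have no background beside them. The placing was a choice: ST6GALNAC5, described above with brain gangliosides and spanning 198 kb, was among the genes not placed. As placed, the nervous-system genes had the longest median span, 477 kb, with 9 of 11 over 100 kb, and 4 of them were at 0 counts after RB-1. The epithelial and secretory genes had a median span of 53.9 kb, with 3 of 9 over 100 kb and 2 at 0 counts (POF1B and TMPRSS15). The 19 genes not placed had a median span of 86.3 kb, with 4 at 0 counts, and the 3 of blood and vessels had one of 102.4 kb, with 1 at 0 counts. The median share left, a value the choice of genes used, was 1.62% for the nervous system, 5.07% for epithelium and secretory organs, 0.787% for blood and vessels and 1.69% for the genes not placed. No neuronal identity went with the first group: SNAP25, SYN1 and RBFOX3, which define neurons, were under 0.3 CPM in every library and none was abundant enough to be tested. Of 5 luminal epithelial markers tested, GATA3, a transcription factor of luminal cells, was lower, with 2.36 and 3.49 CPM in RB-1 and 9.72 and 19.0 CPM in DMSO (log2 fold change -2.54 ± 0.44 SE, edgeR adjusted p = 0.00329). Without RB-1 replicate 1 its value was -2.31 and its adjusted p 0.0598. The other 4 (EPCAM, KRT8, KRT18 and KRT19) did not pass, nor did the tested markers of basal cells (TP63), endothelium (PECAM1 and VWF) and fibroblasts (COL1A1). PTPRC, the leukocyte antigen CD45, had 5 and 0 counts in RB-1 and 22 and 13 counts in DMSO and was called lower (edgeR adjusted p = 0.0469), a call lost in 8 of 11 alternatives, including when either DMSO library or RB-1 replicate 2 was left out.

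Relatives and partners of the selected genes moved in both directions, with more called lower than higher. Over 10 lists of relatives and partners and 7 lists of lineage markers, 97 genes outside the selection were tested. The edgeR fit called 30 lower, the lineage markers GATA3, PTPRC and ZEB1 among them, and 11 higher. The share lower was larger than the 16.1% of all genes tested, and the share higher was close to their 12.8%. Without DMSO replicate 1 the counts were 20 lower and 6 higher, without DMSO replicate 2 they were 19 and 3, and without RB-1 replicate 1 they were 17 and 7. Of the VPS10P sorting receptors, kin of SORL1, both tested members were higher: SORT1 had 182 and 199.5 CPM in RB-1 and 100.4 and 61.5 CPM in DMSO (log2 fold change 1.06 ± 0.26 SE, edgeR adjusted p = 0.0130), and SORCS2 had 1.16 ± 0.32 SE (edgeR adjusted p = 0.0223). Without DMSO replicate 2 SORT1 had 0.85 with an adjusted p of 0.123, and SORCS2 lost its call without either DMSO library or RB-1 replicate 1. In the retromer, the coat that carries such receptors from endosomes, 2 of 10 genes were lower, VPS35 (-1.39 ± 0.28 SE, edgeR adjusted p = 0.00612) and SNX2 (-1.50 ± 0.29 SE, edgeR adjusted p = 0.00484), and 8 did not pass. Among 5 other liprins, PPFIA2 was lower, PPFIA4 was higher and 3, PPFIBP1 included, did not pass. Both liprin calls were lost without some library, PPFIA4 without DMSO replicate 2 (1.48, adjusted p 0.0546) and PPFIA2 without DMSO replicate 1 or RB-1 replicate 1.

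In the neural adhesion families lower calls outnumbered higher ones, against 16.1% lower and 12.8% higher among all genes tested. Many of these genes are long, and over the DMSO range length itself went with lower values. The genes called lower spanned from 14.6 kb (FLRT3) to 1171 kb (ROBO1), while ROBO2 at 1743 kb did not pass. The part of length in these calls was not tested. Of 6 teneurins, latrophilins and FLRT proteins other than TENM1, edgeR called 5 lower and FLRT1 higher, with a median log2 fold change of -1.35. TENM3, the 1 other teneurin with enough counts to be tested, had 7.23 and 12.8 CPM in RB-1 and 34.8 and 28.6 CPM in DMSO (-1.86 ± 0.33 SE, edgeR adjusted p = 0.00353). Of 10 immunoglobulin-family adhesion and guidance receptors other than DSCAM, 6 were lower, 0 higher and 4 did not pass, with a median of -1.28. UNC5B, a netrin receptor, had 0.305 and 0.264 CPM in RB-1 and 2.56 and 1.62 CPM in DMSO (-3.04 ± 0.50 SE, edgeR adjusted p = 0.00243). NEO1, another netrin receptor, had 1.05 and 0.557 CPM after RB-1 and 4.60 and 5.24 CPM in DMSO (-2.80 ± 0.44 SE, edgeR adjusted p = 0.00192). TENM3, UNC5B and NEO1 kept their calls in every alternative run, whereas FLRT1, FLRT2, FLRT3, ADGRL1, ROBO1, NCAM2, L1CAM and NRCAM each lost theirs when some library was left out. Of 4 neurexins and neuroligins only NLGN1 was lower, and that call was also lost without some libraries.

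Most of the general machinery around STXBP6 and LDB2 passed no threshold. Of 17 SNARE and syntaxin-binding genes, 3 were lower and 14 did not pass, where 16.1% of all genes tested were lower. STXBP3 was lower (-1.02 ± 0.31 SE, edgeR adjusted p = 0.0341), a call lost with library totals alone and with upper-quartile factors. STXBP4 was lower (-2.17 ± 0.42 SE, edgeR adjusted p = 0.00518), and STXBP5L, a tomosyn, had 0 and 0 counts after RB-1 and 21 and 27 counts in DMSO. Of 7 LIM-domain-binding and LIM-only cofactors, LMO2 was lower (-2.41 ± 0.38 SE, edgeR adjusted p = 0.00193), and so were LMO3 and SSBP3, LMO4 was higher and 3, LDB1 included, did not pass. The calls of LMO3, SSBP3 and LMO4 were lost when DMSO replicate 2 or RB-1 replicate 1 was left out. Of 14 epithelial junction genes, 5 were lower and 4 higher. TJP1, the tight-junction scaffold, had 35.1 and 49.6 CPM in RB-1 and 189 and 183 CPM in DMSO (-2.34 ± 0.26 SE, edgeR adjusted p = 0.000421), while CLDN4, a claudin of the same junction, had 229.5 and 164 CPM in RB-1 and 50.7 and 40.1 CPM in DMSO (1.93 ± 0.27 SE, edgeR adjusted p = 0.00105).

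Genes of vitamin D metabolism around CYP24A1 moved in both directions. Whether the vitamin D receptor bears on the level of CYP24A1 here was not tested. VDR, the vitamin D receptor, had 3.33 and 2.73 CPM in RB-1 libraries and 9.61 and 10.6 CPM in DMSO libraries (-1.94 ± 0.34 SE, edgeR adjusted p = 0.00340). Among the other 7 genes of vitamin D metabolism and its receptor tested, CYP27A1, a hydroxylase, and RXRB, a partner of the receptor, were higher and 5 did not pass, including CYP27B1, the activating enzyme. CYP27A1 and RXRB lost their calls without DMSO replicate 1 and without DMSO replicate 2. ZEB1, a transcription factor of the mesenchymal state, was lower as well, with 14.2 and 15.6 CPM in RB-1 and 62.8 and 55.6 CPM in DMSO (-2.19 ± 0.28 SE, edgeR adjusted p = 0.000704), while VIM and FN1 did not pass.

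**Figure D5:**
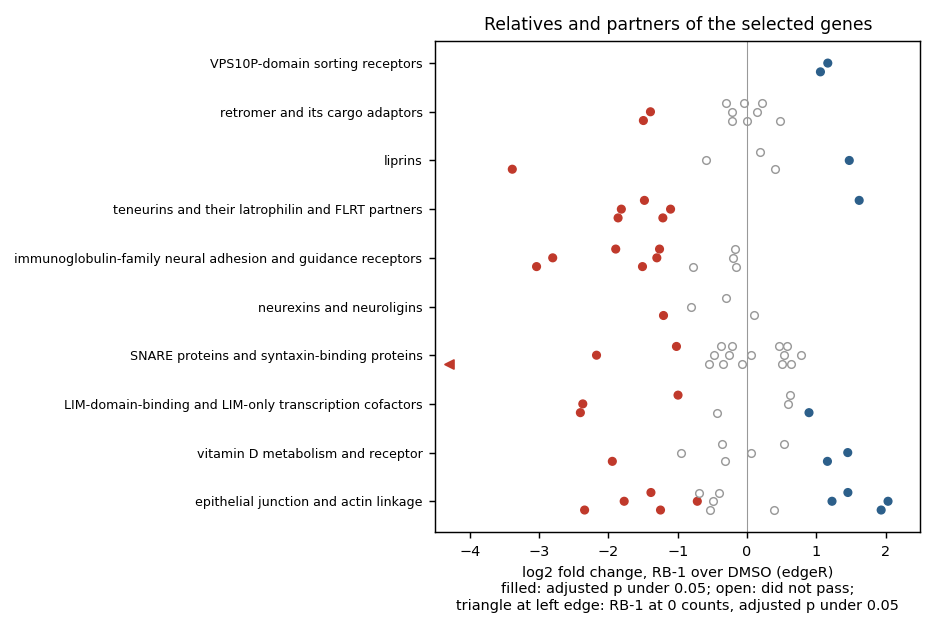
Log2 fold change of RB-1 over DMSO (x) for tested genes of 10 lists of relatives and partners that were not selected, 1 row per list. Filled points passed an edgeR adjusted p of 0.05 (red lower, blue higher after RB-1), open points did not, and the triangle is STXBP5L, at 0 counts after RB-1.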

How the data were processed

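Raw counts per gene were deposited by the authors for 20263 human Ensembl genes, 1 column per library, not pooled. Per the labels' protocols, libraries came from total RNA with an mRNA kit. Aligner and counter: not given in the sources used here. Per the submitters' processing notes the builds were GRCm38 and mm10, which are mouse builds, so no coordinates of the counts' own build are printed. In each library 2 counts were 4.18 to 4.98 times as frequent as 1 count, so paired reads may have been counted singly and counting intervals may be too narrow.

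CPM is the count over the library total. Differences across genes used edgeR 4.0.16 (R 4.3.3): TMM factors, filterByExpr (13612 genes), robust quasi-likelihood fit, two-sided, Benjamini-Hochberg adjusted p under 0.05 over all genes tested, SE of log2 fold changes from the same fit. The code was tested on simulated data. Replicate libraries differed by more than sampling noise (chi-square per degree of freedom 128 in RB-1 and 256.6 in DMSO). DESeq2 1.42.0, other scalings and filters, and leaving out each library were alternatives.

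Spans, exons and neighbours came from GENCODE release 29, which also named CDR1, and symbols from a gene name table (19761 of 20263). Promoters came from RefSeq. Members, lists, roles and tissues were chosen with earlier results of these data known. Genes named in full are the 8 given with the rule, the 20 most abundant or lowest, and those in a group of at least 3 of like function. From the lists, called genes and the smallest p were named. Of the 42 genes, 3 enter the counts and medians but are not reported here singly.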

Additional observations from a re-analysis of the deposited data

How the results depend on the processing

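With share limits of 0.05 and 0.2 in place of 0.1, 27 and 92 genes were selected and the turned-round rule found 5 and 92. Median spans were 186.6 kb and 125.4 kb, and other choices of scaling or range gave 28 to 46 genes with 102.4 to 115.8 kb. A stricter demand was that the highest library of the low group stay at or under 0.1 of the lowest of the other. It selected 32 genes with a median span of 162.9 kb, and the turned-round rule then found 7. Leaving out 1 library gave 46 to 59 selected genes, 102.4 to 135.4 kb and 29 to 41 turned round. Over all genes it gave 1065 to 2443 lower and 522 to 1955 higher calls, in the lists 17 to 28 and 3 to 10, and among neighbours 6 to 18 and 2 to 8. Library totals alone gave 1400 lower and 2059 higher calls and shifted the median log2 fold change by 0.20, upper-quartile factors by 0.11. The libraries' numbers pair nothing in the labels (correlation of same-numbered deviations -0.0959), and with the replicate number as a block 2314 genes were lower and 1741 higher. The legacy edgeR fit and all alternatives for neighbours were chosen after seeing the data. The cause of these shifts was not tested. With 2 libraries per group, a gene that did not pass may still have changed, and 0 counts set only the lower limits given.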
